A study of Drosophila melanogaster with 12 samples.

Results

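The genes described here are 32 components of the Piwi-interacting RNA (piRNA) pathway and of the nuage, taken from a list of names drawn up by known function, with earlier results of these data known. A probe set naming the gene alone was found on the array for 30 of them. Of these, 29 passed the filter on dim genes and were tested among 6163 genes. The genes arx and egg had no probe set of their own, and fs(1)Yb passed the floor of log2 5 on 1 of 12 arrays, so it was not tested.

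RNA was measured on 12 microarrays in ovaries of Drosophila melanogaster females mutant or wild type for su(Hw), the gene of the zinc-finger protein that builds the gypsy insulator, and the study asked what loss of this protein does to ovarian gene expression. Virgin females raised at 25 °C were dissected 4 to 6 h after eclosion, and about 100 pairs of ovaries were pooled for each biological replicate. The oldest egg chambers at this age have reached stage 8, which precedes the stage 9 death of the mutant chambers. There were 4 genotypes with 3 replicates each. The mutant A2663/v was y2 w67c23 ct6 f1 with the P element P{EPgy2}CG6499[EY02782] and su(Hw)A2663 over su(Hw)2 in its genotype label. Its source label names the second allele v, and the labels do not settle which holds. The mutant Pb/2 was y2 w67c23 ct6 f1 with su(Hw)e04061 over su(Hw)2. The wild type BL15598 was y1 w67c23 with the same P element that A2663/v carries, and the wild type Canton S carried none of these markers. Both mutants and BL15598 therefore share the allele w67c23, which Canton S lacks, and neither wild type carries all the markers of a mutant. The alleles are carried by every cell of the animal, and the ovary is a mixture of germline and somatic cells. In such bulk RNA, fewer cells of a type and less RNA per cell cannot be told apart.

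piRNAs are small RNAs that guide PIWI proteins to transposon transcripts. In the Drosophila germline their precursors are transcribed from heterochromatic clusters, exported to the nuage, a granular zone around the nurse cell nucleus, and cut there by Aubergine and Argonaute 3 in the ping-pong cycle, or on the mitochondrial surface into phased piRNAs that load Piwi. Loaded Piwi enters the nucleus and directs silencing of transposons at the chromatin. Follicle cells around the germline run a simpler form of the pathway with Piwi and Yb bodies and without the nuage.

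The su(Hw) transcript itself averaged log2 2.56 ± 0.07 in A2663/v and 2.94 ± 0.42 in Pb/2, compared with 8.89 ± 0.13 in BL15598 and 9.21 ± 0.09 in Canton S (SD, n = 3 each). Both mutants lay under the floor of log2 5, so the transcript was at least 16.5-fold lower in mutants, with an exact two-sided permutation p of 0.00216, the smallest that 924 splits of the arrays can give. That test exchanges single arrays although arrays of a genotype belong together. All signals below are log2 values of the deposited, normalised data, and no level of one gene is set against that of another, since each probe set has its own response.

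More members were higher than lower in the mutants. At an adjusted p under 0.05 in limma, the mean of the mutants lay above the mean of the wild types for 14 of 29 members, where 20.3% of all genes tested were called higher. The genes were AGO3, armi, aub, cuff, krimp, piwi, qin, rhi, shu, spn-E, tej, tud, vret and zuc. Lower in the mutants were 3 members, nxf2, Hen1 and vls, where 26.6% of all genes were called lower. The changes were modest, from 1.15-fold to 1.72-fold among the 14. No member passed both the test and a 2-fold minimum in either direction, against 3.98% of all genes higher and 1.85% lower, although 19 members had an unadjusted p under 0.05 in limma. The median log2 change was 0.20 over the 29 members and -0.03 over all genes tested, and 75.9% of members against 45.2% of all genes had a change above 0. These changes are relative to the scale of the arrays. Scaling to the median of the germline markers without Rbp9, added after the data were seen, moved the median of all genes to 0.26, called 23 members higher, against 53.4% of all genes, and 1 lower, against 6.12%, and turned 6 members above 0 (del, squ, vls, Gasz, Hen1 and Panx), which left nxf2 alone below 0.

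**Figure D1:**
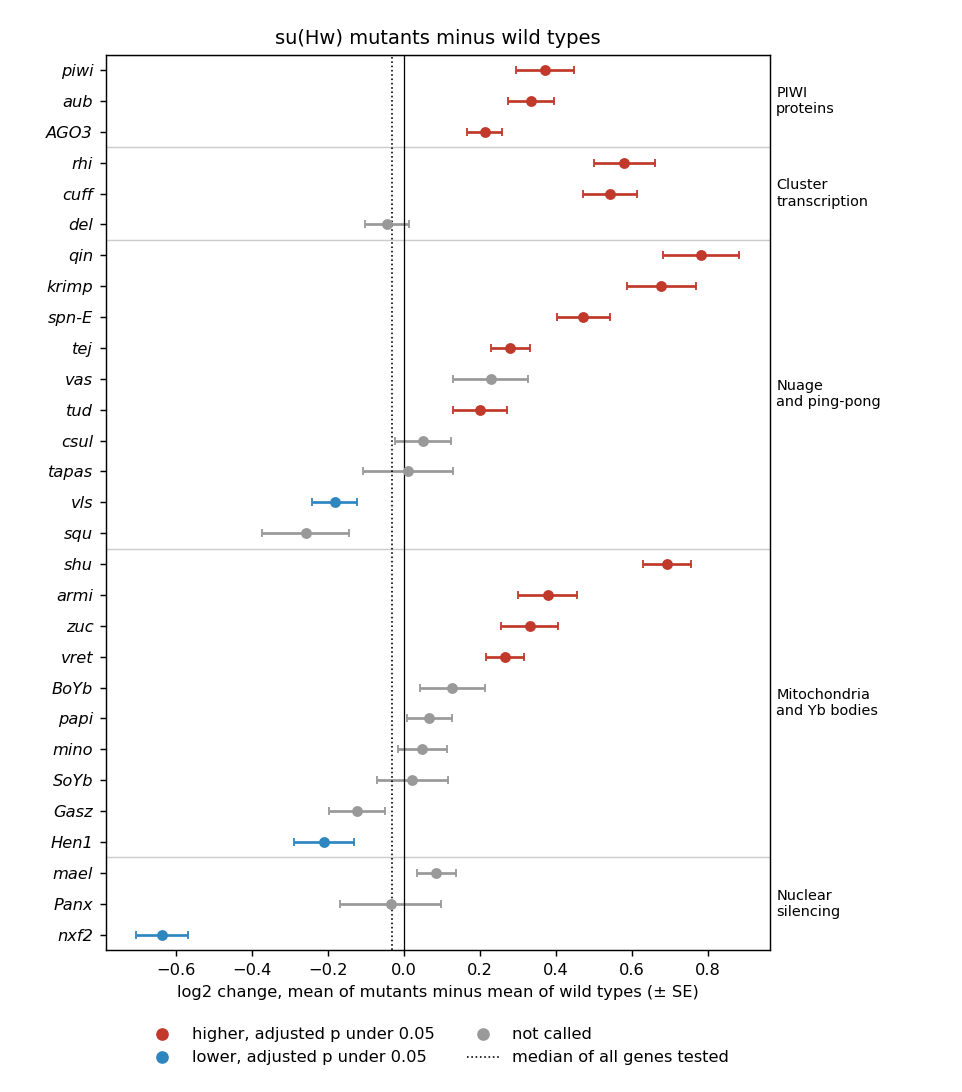
Log2 change of the 29 tested members (rows, grouped by role), mean of the 6 mutant arrays minus mean of the 6 wild-type arrays, with the standard error of the limma fit as bars and the median of all genes tested as a dotted line. The change of qin is the largest rise at 0.78, and nxf2 is the lowest member at -0.64.

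The wild types did not give the same picture when taken one at a time. The comparisons that follow share samples with each other. In A2663/v minus BL15598, 14 members were higher, against 21% of all genes, and 1 was lower, against 19.9%. In A2663/v minus Canton S, 10 were higher, against 12.3%, and 1 was lower, against 14.6%. Pb/2 minus BL15598 had 14 higher and 2 lower, with 17.9% and 24.9% of all genes. Pb/2 minus Canton S had 8 higher and 1 lower, with 10.1% and 18.4% of all genes. The genes aub, qin, rhi, shu and tej were higher in all 4 comparisons, a pattern that 4.14% of all genes had. Lower in all 4 was nxf2, as were 5.31% of all genes. BL15598 had the lowest mean of the 4 genotypes for 62.1% of the members (18 of 29) and 31.8% of all genes.

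**Figure D2:**
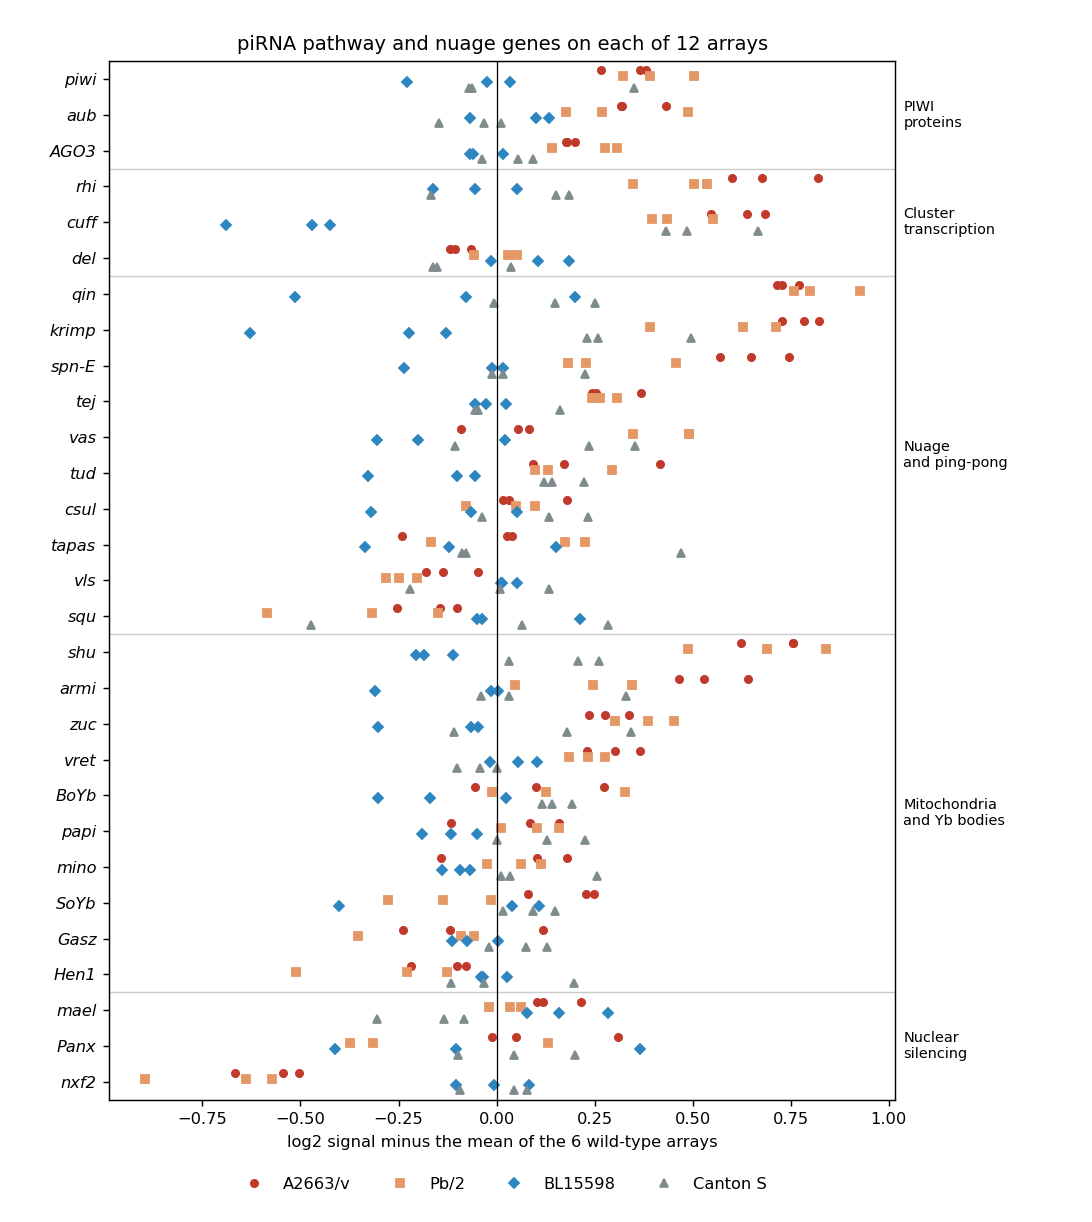
Log2 signal of the 29 tested members (rows, grouped by role) on each of the 12 arrays (points, coloured by genotype), minus the member's own mean over the 6 wild-type arrays. For AGO3, aub, rhi, tej, qin, vret and shu all 6 mutant points lie right of all 6 wild-type points, and for nxf2 they lie left of them.

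All 3 genes for PIWI proteins were called higher in the mutants pooled, where 20.3% of all genes were. In A2663/v minus Canton S only 1 of the 3, aub, was called, against 12.3% of all genes, and AGO3 was at 0.15. In the other single comparisons all 3 were called. The signal of aub, whose product Aubergine binds mainly piRNAs antisense to transposons in the nuage, was 10.96, 10.96 and 11.08 in A2663/v and 10.82, 10.91 and 11.13 in Pb/2, against 10.78, 10.58 and 10.75 in BL15598 and 10.61, 10.50 and 10.66 in Canton S. AGO3, whose product is the ping-pong partner of Aubergine, had 10.62, 10.64 and 10.62 in A2663/v and 10.75, 10.72 and 10.58 in Pb/2, against 10.46, 10.37 and 10.38 in BL15598 and 10.50, 10.54 and 10.40 in Canton S. For both genes every mutant array was above every wild-type array, but by little: the lowest mutant and highest wild-type values of AGO3 were 10.58 and 10.54. Non-overlap of this kind, with mutants higher, was seen for 7 of 29 members (AGO3, aub, rhi, tej, qin, vret and shu) and 5.35% of all genes. The change of aub was 0.33 ± 0.06 (log2, SE) with an adjusted p of 0.000627, and that of AGO3 was 0.21 ± 0.05 with an adjusted p of 0.00207. Genotype as a random block ended the calls of AGO3 and piwi, and the 3′ minus 5′ covariate, described further on, ended those of aub and piwi, with 0.18 for aub.

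The signal of piwi, the nuclear PIWI protein used in germline and follicle cells, was 10.74, 10.86 and 10.84 in A2663/v and 10.80, 10.98 and 10.87 in Pb/2, against 10.45, 10.25 and 10.51 in BL15598 and 10.41, 10.41 and 10.83 in Canton S. Canton S replicate 3 lay inside the mutant range, and the other wild-type arrays lay below it. The change was 0.37 ± 0.08 (adjusted p = 0.00146). Against Canton S alone it was 0.33 in Pb/2 (adjusted p = 0.0339) and 0.27 in A2663/v (adjusted p = 0.0876). With that 3′ minus 5′ signal of control probes in the model, the change of piwi was 0.02 and was no longer called.

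Of the 3 genes that act in the transcription of dual-strand clusters, rhi and cuff rose and del did not pass the test. rhi, which encodes the heterochromatin protein that marks these clusters, had 8.62, 8.69 and 8.84 in A2663/v and 8.55, 8.52 and 8.37 in Pb/2, against 8.07, 7.96 and 7.86 in BL15598 and 8.20, 8.17 and 7.85 in Canton S. Every mutant array lay above every wild-type array, and the change was 0.58 ± 0.08 (adjusted p = 6.71e-05), or 1.50-fold. It was called against each wild type in both mutants, with log2 changes of 0.75 and 0.64 in A2663/v and 0.52 and 0.41 in Pb/2, each pair against BL15598 and then Canton S.

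cuff, whose product Cutoff protects cluster transcripts from ending early, gave a different pattern. It had 8.59, 8.73 and 8.68 in A2663/v and 8.44, 8.48 and 8.60 in Pb/2, against 7.62, 7.36 and 7.57 in BL15598 and 8.71, 8.53 and 8.48 in Canton S. The BL15598 arrays lay below every array of the other genotypes, and Canton S overlapped both mutants. The pooled change of 0.54 ± 0.07 (adjusted p = 4.69e-05) was made of 1.15 ± 0.10 in A2663/v and 0.99 ± 0.10 in Pb/2 against BL15598 (adjusted p = 1.6e-06 and 5.98e-06), and 0.09 ± 0.10 and -0.07 ± 0.10 against Canton S (adjusted p = 0.537 and 0.653). The call of cuff in mutants thus rested on the BL15598 stock. del, which encodes the partner that Rhino and Cutoff need, differed by -0.04 (adjusted p = 0.549).

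**Figure D3:**
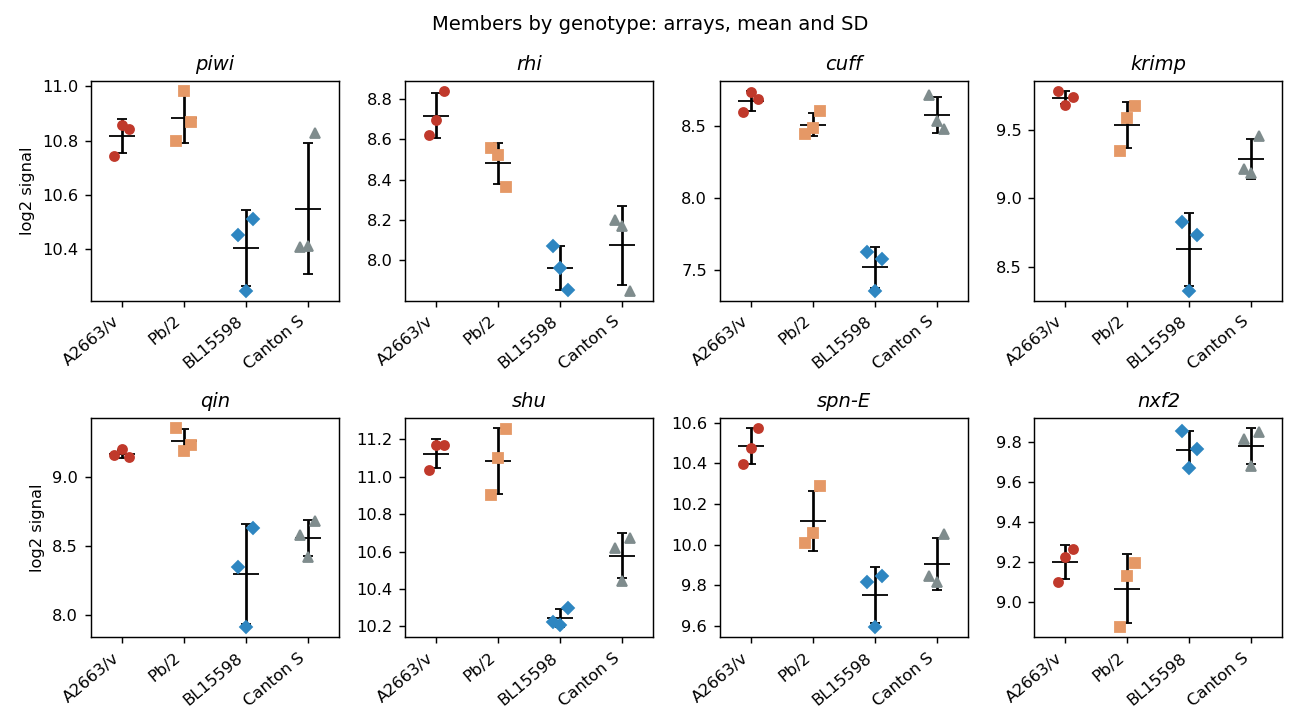
Log2 signal of 8 members on every array (points) with the mean and SD of each genotype, mutants left of wild types. In cuff the BL15598 arrays lie apart from the other genotypes, whereas qin, rhi and shu are higher and nxf2 is lower in both mutants than in both wild types.

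In the nuage, 5 of 10 members rose (krimp, qin, spn-E, tej and tud), 1 fell (vls) and 4 did not pass the test, where 20.3% of all genes were higher and 26.6% lower. The median change of the 10 was 0.21. With the 3′ minus 5′ covariate only qin of these 6 stayed called, and with genotype as a random block tud and vls were lost. qin, also called kumo, encodes a Tudor-domain protein that keeps ping-pong between Aubergine and Argonaute 3. Its signal was 9.15, 9.20 and 9.14 in A2663/v and 9.35, 9.19 and 9.22 in Pb/2, against 8.35, 7.91 and 8.63 in BL15598 and 8.58, 8.42 and 8.68 in Canton S. The groups did not overlap, and the change of 0.78 ± 0.10 (adjusted p = 3.87e-05), or 1.72-fold, was the largest rise among the members. A second probe set naming qin alone, with less signal, showed no such difference: its average was 7.11 ± 0.29 over mutants and 7.20 ± 0.44 over wild types (SD, n = 6 each), a change of -0.08. Which of the probe sets follows the qin mRNA was not tested.

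krimp encodes the Tudor-domain scaffold that brings Argonaute 3 and Aubergine together. It had 9.78, 9.68 and 9.74 in A2663/v and 9.35, 9.58 and 9.67 in Pb/2, against 8.83, 8.33 and 8.73 in BL15598 and 9.21, 9.19 and 9.45 in Canton S. The highest Canton S array exceeded the lowest Pb/2 array, so the groups overlapped. The change was 0.68 ± 0.09 (adjusted p = 5.49e-05), with 1.11 and 0.91 against BL15598 for A2663/v and Pb/2, and 0.45 and 0.25 against Canton S, where the value for Pb/2 was not called (adjusted p = 0.163).

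spn-E, which encodes the Tudor-domain RNA helicase Spindle-E, had 10.40, 10.48 and 10.57 in A2663/v and 10.01, 10.06 and 10.29 in Pb/2, against 9.82, 9.59 and 9.85 in BL15598 and 9.85, 9.82 and 10.05 in Canton S. A2663/v was above all other arrays, and Pb/2 overlapped Canton S. The pooled change was 0.47 ± 0.07 (adjusted p = 0.000136). tej, which encodes a Tudor and LOTUS domain partner of Vasa and Spindle-E, had 10.47, 10.60 and 10.48 in A2663/v and 10.47, 10.53 and 10.49 in Pb/2, against 10.25, 10.17 and 10.20 in BL15598 and 10.18, 10.17 and 10.39 in Canton S. Its arrays did not overlap, and it rose by 0.28 ± 0.05 (adjusted p = 0.000653).

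Changes near the threshold were seen in tud and vls. tud encodes Tudor, which binds the methylated arginines of PIWI proteins, and its change of 0.20 ± 0.07 (adjusted p = 0.0337) consisted of 0.39 and 0.33 against BL15598 and 0.07 and 0.01 against Canton S, in A2663/v and Pb/2. It was not called without Canton S replicate 2, BL15598 replicate 2, Pb/2 replicate 2 or A2663/v replicate 1, with a change of at least 0.15 over all arrays left out. vls encodes Valois, the cofactor of the methyltransferase Capsuleen that makes those arginine marks, and it fell by 0.18 ± 0.06 (adjusted p = 0.0237). Its call was lost without Canton S replicate 1 or 2, BL15598 replicate 1, Pb/2 replicate 2 or A2663/v replicate 3, with changes of -0.23 to -0.14 over all arrays left out. The others were vas, the nuage helicase Vasa, at 0.23 (adjusted p = 0.0732), squ, whose product binds Aubergine, at -0.26 (adjusted p = 0.0805), csul at 0.05 and tapas, a Tudor-domain relative of tej, at 0.01. Of the 4 single comparisons, vas was called higher in Pb/2 minus BL15598 only, at 0.60. In the pooled comparison vas was called higher without Canton S replicate 1, and squ was called lower without Canton S replicate 3.

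Among the 10 tested members that make piRNAs on mitochondria and in Yb bodies, 4 rose (armi, shu, vret and zuc), 1 fell (Hen1) and 5 did not pass the test, where 20.3% of all genes were higher and 26.6% lower. The median was 0.10. With genotype as a random block only shu of these 5 stayed called, and with the 3′ minus 5′ covariate shu and zuc did. shu encodes Shutdown, a co-chaperone needed to load PIWI proteins. Its signal was 11.04, 11.17 and 11.17 in A2663/v and 10.90, 11.10 and 11.25 in Pb/2, against 10.23, 10.21 and 10.30 in BL15598 and 10.62, 10.44 and 10.67 in Canton S. The arrays did not overlap, and the rise of 0.69 ± 0.06 (adjusted p = 1.78e-06), or 1.62-fold, had the lowest adjusted p among the members. It was called against Canton S also, at 0.55 in A2663/v and 0.51 in Pb/2 (adjusted p = 0.000545 and 0.000907).

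armi encodes the RNA helicase Armitage, which carries precursors to the mitochondria. It had 11.72, 11.90 and 11.79 in A2663/v and 11.30, 11.50 and 11.60 in Pb/2, against 11.26, 10.95 and 11.24 in BL15598 and 11.29, 11.22 and 11.59 in Canton S. The A2663/v arrays were above all others, and Pb/2 overlapped Canton S. The pooled change was 0.38 ± 0.08 (adjusted p = 0.00143), and Pb/2 minus Canton S was 0.11 (adjusted p = 0.503). With the 3′ minus 5′ covariate the change of armi was 0.05 and was not called.

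zuc encodes the mitochondrial nuclease Zucchini that cuts phased piRNAs. It had 10.31, 10.24 and 10.20 in A2663/v and 10.36, 10.27 and 10.42 in Pb/2, against 9.92, 9.67 and 9.90 in BL15598 and 10.31, 10.15 and 9.86 in Canton S. All BL15598 arrays lay below the mutant arrays, and Canton S overlapped them. The change of 0.33 ± 0.08 (adjusted p = 0.00294) was called against BL15598 (0.42 in A2663/v and 0.52 in Pb/2) but not against Canton S (0.14 and 0.24). vret encodes the Tudor-domain protein Vreteno, a partner of Armitage, and had 9.74, 9.88 and 9.81 in A2663/v and 9.69, 9.79 and 9.74 in Pb/2, against 9.61, 9.57 and 9.49 in BL15598 and 9.47, 9.41 and 9.51 in Canton S. Its groups did not overlap, and it rose by 0.27 ± 0.05 (adjusted p = 0.000882).

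Hen1, the methyltransferase that caps the 3′ ends of piRNAs and of small interfering RNAs, averaged 8.50 ± 0.07 in A2663/v and 8.35 ± 0.20 in Pb/2, compared with 8.62 ± 0.04 in BL15598 and 8.65 ± 0.16 in Canton S (SD, n = 3 each). It fell by 0.21 ± 0.08 (adjusted p = 0.0427), and the call was lost without any one of 9 of the 12 arrays. The arrays that kept it when left out were Canton S replicate 3 and Pb/2 replicates 1 and 3. The members not called were the Yb relatives BoYb (0.13) and SoYb (0.02), the mitochondrial papi (0.07) and mino (0.05), and Gasz (-0.12), a mitochondrial scaffold. fs(1)Yb, which marks the Yb bodies of somatic cells, averaged 4.73 ± 0.24 in A2663/v and 4.55 ± 0.36 in Pb/2, compared with 4.10 ± 0.43 in BL15598 and 4.63 ± 0.39 in Canton S, with 1 array over the floor of log2 5 (Canton S replicate 3, 5.08).

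Of the 3 tested members of nuclear silencing, none was called higher in limma for the mutants pooled, also at an unadjusted p under 0.05. Of these, nxf2 fell, Panx differed by -0.04 and mael by 0.09 (adjusted p = 0.844 and 0.198). Of the 4 single comparisons, mael was called higher in A2663/v minus Canton S only, at 0.32. nxf2 encodes a nuclear export factor variant that joins Panoramix in silencing at Piwi targets. Its signal was 9.10, 9.22 and 9.26 in A2663/v and 8.87, 9.13 and 9.20 in Pb/2, against 9.85, 9.67 and 9.76 in BL15598 and 9.81, 9.68 and 9.85 in Canton S. It was the one member whose mutant arrays all lay below the wild-type arrays, which was so for 8.31% of all genes. It fell by 0.64 ± 0.07 (adjusted p = 8.03e-06), or 1.56-fold, by about the same amount in each comparison: -0.56 and -0.58 for A2663/v and -0.69 and -0.71 for Pb/2, against BL15598 and then Canton S. BL15598 and Canton S differed by -0.02 at this gene (adjusted p = 0.913).

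BL15598 and Canton S differed from each other at 5 of the 29 members. BL15598 was lower at cuff, krimp, shu and tud, or 13.8% of members against 14.2% of all genes, and higher at mael, or 3.45% against 11.2%. Neither share of members was above that of all genes. Markers of other cells moved with this comparison: 5 of 8 somatic ovary markers (median -0.54), 5 of 7 sheath muscle genes (median -0.50) and 2 of 4 haemocyte genes (Pxn at -2.19 and NimC1 at -1.42) were lower in BL15598, and their part in the members' values was not tested. The change of BL15598 minus Canton S was -1.06 ± 0.10 for cuff (adjusted p = 5.15e-06), -0.66 ± 0.13 for krimp (adjusted p = 0.00219), -0.33 ± 0.09 for shu (adjusted p = 0.0152) and -0.32 ± 0.10 for tud (adjusted p = 0.0321). These 4 genes were also among the 14 called higher in the mutants, so the distance to the mutants was larger from BL15598 in each. mael, which encodes Maelstrom, a protein of nuage and nucleus, had 11.08, 10.97 and 10.98 in A2663/v and 10.90, 10.85 and 10.93 in Pb/2, against 11.15, 11.02 and 10.94 in BL15598 and 10.73, 10.78 and 10.56 in Canton S, and BL15598 minus Canton S was 0.35 ± 0.07 (adjusted p = 0.00377). Without BL15598 replicate 2 the members called lower between the wild types were 2 in place of 4, and the calls of tud and shu were lost. The share of all genes called lower in that fit was not counted. The shu call was also lost without Canton S replicate 3, and that of tud without any one Canton S array or BL15598 replicate 1.

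In Pb/2 minus A2663/v, 1 member (3.45%) was lower, against 5.08% of all genes. None was higher in limma, against 2.95%, with 1 member higher at an unadjusted p under 0.05. Cyclic loess scaling called 1 member higher, vas, and the share of all genes it called in this comparison was not counted. The lower member was spn-E, at -0.37 ± 0.10 (adjusted p = 0.0391). The call was lost without Canton S replicate 1, BL15598 replicate 1, Pb/2 replicate 1 or 2, or any A2663/v array, with changes of -0.45 to -0.31 over all arrays left out. vas was at 0.43 (adjusted p = 0.0848) and armi at -0.33 (adjusted p = 0.0882). Without Canton S replicate 3 armi was called lower too.

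Other genes of the pathway, 34 of 39 listed, moved in both directions, with 12 higher and 4 lower in the mutants, where 20.3% and 26.6% of all genes were called, and a median of 0.06. The split depended on the wild type, with 14 higher and 3 lower in A2663/v and 10 and 4 in Pb/2 against BL15598, and 7 and 3 in A2663/v and 5 and 5 in Pb/2 against Canton S. Among 13 genes of cluster transcription and export, 5 were higher and 1 lower. The largest was moon, the TFIIA-like factor that Rhino recruits through Deadlock, with a rise of 0.54 ± 0.08 (adjusted p = 0.000169) and averages of 7.92 ± 0.09 in A2663/v and 8.21 ± 0.16 in Pb/2, compared with 7.75 ± 0.17 in BL15598 and 7.31 ± 0.06 in Canton S (SD, n = 3 each). Its low genotype was Canton S. The next were TfIIA-S, its general transcription factor partner, at 0.38 ± 0.04 (adjusted p = 5.34e-06), thoc5 of the THO export complex at 0.36 and Kipf, which directs Rhino to clusters, at 0.33, which was not called against Canton S in either mutant. TfIIA-S was low in BL15598 only, with 12.26 ± 0.01 in A2663/v and 12.22 ± 0.08 in Pb/2, compared with 11.32 ± 0.06 in BL15598 and 12.39 ± 0.08 in Canton S. The lower gene, named here after its values were seen, was nxf3, which exports cluster transcripts, at -0.28 (adjusted p = 0.0216). Against BL15598 nxf3 was at 0.01 in A2663/v and -0.06 in Pb/2, and against Canton S at -0.49 and -0.57.

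Of 9 chromatin factors that Piwi-directed silencing uses, 5 were higher and 1 lower, where 20.3% of all genes were higher and 26.6% lower. Against BL15598, 6 were higher in A2663/v and 4 in Pb/2. Against Canton S these counts were 3 and 1, and 1 was lower in each of these comparisons. sov, a zinc-finger protein of heterochromatin, had the largest rise at 0.71 ± 0.14 (adjusted p = 0.00094). It was again low in BL15598, with 1.29 in A2663/v and 0.92 in Pb/2 against that stock, and 0.51 and 0.14 against Canton S (adjusted p = 0.0695 and 0.617). Su(var)2-10, the SUMO ligase of this step, fell in each comparison and by 0.56 ± 0.06 (adjusted p = 9.52e-06). The remodeller Mi-2 was at 0.39 and CoRest, a subunit of a histone demethylase complex, at 0.30. In 12 genes of biogenesis, chaperones, granules and piwi splicing, 2 were higher and 2 lower, or 16.7% each, less than the shares of all genes. CG9925, which encodes a Tudor-domain protein, rose by 0.48 ± 0.07 (adjusted p = 0.000179) and me31B, a helicase of maternal mRNA granules, fell by 0.34 ± 0.04 (adjusted p = 2.79e-05). Acn, which aids splicing of piwi, was at 0.18 and the germline transcription factor gene ovo at -0.17. Against Canton S neither was called in either mutant, and ovo was at 0.14 in Pb/2.

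The small RNA machinery outside the piRNA pathway is set beside these genes. AGO1, AGO2 and Dcr-1 had no probe set of their own. Of 7 tested genes of the siRNA and miRNA pathways, none was called higher in limma, also at an unadjusted p under 0.05. Of all genes 20.3% were called higher and 26.6% lower, and 3 of the 7 were lower, with a median of -0.09. These were loqs, whose protein partners the Dicers, at -0.39 ± 0.08 (adjusted p = 0.00176), Ranbp21, the exporter of precursor miRNAs, at -0.32 (adjusted p = 0.00142), and r2d2, the loading partner of Dicer-2, at -0.22 (adjusted p = 0.0175). Against Canton S, none of the 7 was called in A2663/v and 2 were lower in Pb/2, and loqs was at -0.16 and -0.08. In A2663/v minus BL15598, 1 was higher and 2 were lower, and the wild types differed at 4 of the 7. The difference between the pathways was not tested.

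**Figure D4:**
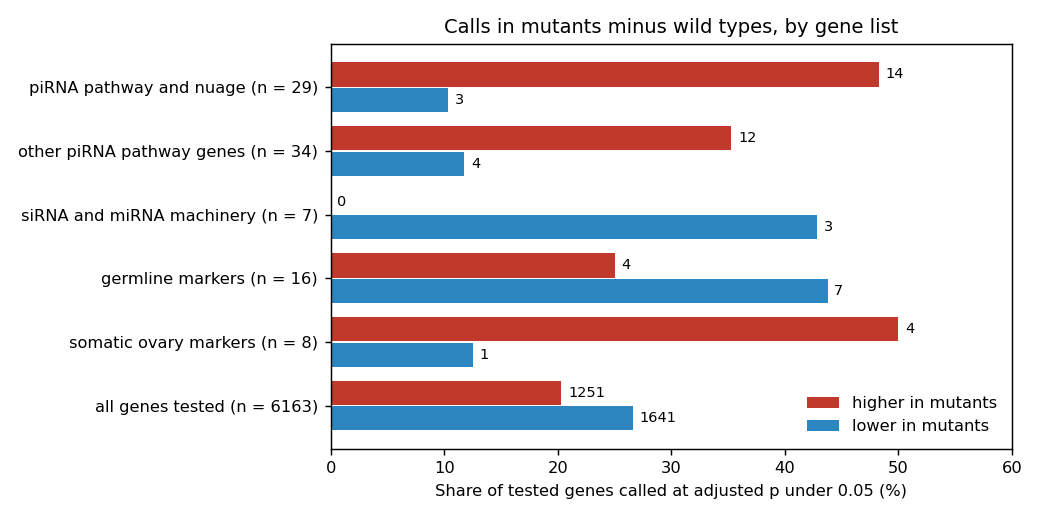
Share of the tested genes of each list called higher or lower in mutants minus wild types (limma, adjusted p under 0.05), with all 6163 genes for scale. Members were called higher in 14 of 29 genes and siRNA and miRNA genes in 0 of 7, against 20.3% of all genes.

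Other features of the arrays moved with genotype. The germline markers, 16 tested genes such as osk and orb, had a mean log2 signal of 10.29 to 10.35 on mutant arrays and 10.22 to 10.38 on wild-type arrays. Of them, 4 were higher in mutants and 7 lower, where 20.3% of all genes were higher and 26.6% lower, and the median change was -0.09. The largest changes were those of Rbp9 (1.71), stwl (0.73), pum (0.68) and otu (-0.59). The means above include Rbp9, so they do not show that the other markers were level. Scaling to the mean or the median of the markers without Rbp9 moved the median of all genes from -0.03 to 0.05 or 0.26. The 8 tested markers of follicle and other somatic ovary cells had means of 8.42 to 8.71 on mutant and 7.74 to 8.87 on wild-type arrays. In the mutants 4 of these were higher and 1 lower, against 20.3% and 26.6% of all genes. That count turned with the wild type. Against BL15598, 6 were higher and 0 lower in A2663/v and 5 higher and 1 lower in Pb/2. Against Canton S, 1 was higher and 2 lower in A2663/v and 0 were higher and 2 lower in Pb/2. The largest pooled change, 1.22 for mirr, combined 2.73 in A2663/v and 3.71 in Pb/2 against BL15598 with -1.27 and -0.29 against Canton S. The next were bab2 at 0.56, upd1 at -0.44 and br at 0.38, and slbo, en, hh, ptc and Sox100B were under the floor on every array. BL15598 was the low genotype of this list too, at 7.88 ± 0.13, against 8.75 ± 0.10 in Canton S. The part of somatic cell content in the members' values was not tested.

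Signals of control probe sets also differed. The 3′ probe set minus the 5′ probe set of the control gene GAPDH was 2.42 ± 0.10 on mutant arrays and 2.01 ± 0.24 on wild-type arrays (log2, SD, n = 6 each), and that of eIF-4a was 3.01 ± 0.22 on mutant and 2.31 ± 0.38 on wild-type arrays. That of actin was 1.20 ± 0.14 on mutant and 1.04 ± 0.22 on wild-type arrays. For each of these controls the ranges of mutant and wild-type arrays overlapped. BL15598 replicate 2 had the lowest GAPDH difference, 1.67, and Canton S replicate 3 was at 2.43, within the mutant range of 2.27 to 2.54. BL15598 replicate 2 was also the lowest of all 12 for 58.6% of the members, against 20% of all genes. The mean of the GAPDH and eIF-4a differences, without actin, was used as a covariate, added after the data were seen. With it 7 members were higher, against 9.64% of all genes, and 2 lower, against 10.9%, and the member median was 0.11. Of the 14, AGO3, cuff, qin, rhi, shu and zuc stayed called, while armi, aub, krimp, piwi, spn-E, tej, tud and vret were not, with changes of 0.05 for armi and 0.41 for krimp. nxf2 stayed called lower. The covariate differs between the genotypes, so its part and that of genotype cannot be told apart.

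Genes of digestive enzymes had a mean log2 signal of 6.91 to 8.01 on 4 mutant arrays (A2663/v replicates 1 and 3, Pb/2 replicates 1 and 2), and 2.28 to 4.83 on the other 8. Without these 4 arrays, 10 members were higher, against 12.4% of all genes, and 1 was lower, against 12.1%. AGO3, piwi, tud and zuc were no longer called, with fewer arrays in the fit. The arrays A2663/v replicate 2 and Pb/2 replicate 3, without this signal, had member means of 9.69 and 9.64, both above every wild-type array. Of the 4 arrays with it, Pb/2 replicate 1 was at 9.50, below Canton S replicate 1 at 9.54, and the others were at 9.59 to 9.66. The part of this signal in the members' values was not tested.

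**Figure D5:**
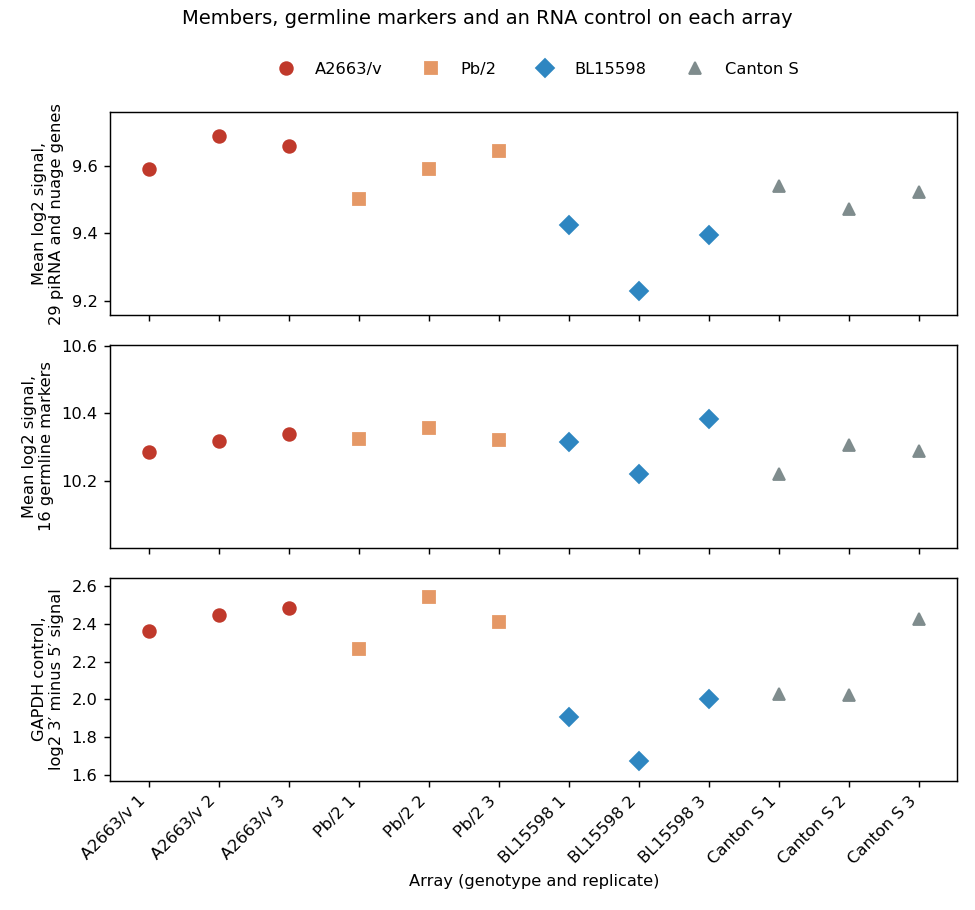
Mean log2 signal of the 29 members, mean log2 signal of the 16 germline markers (Rbp9 included) and the 3′ minus 5′ signal of GAPDH on each of the 12 arrays, mutants left and wild types right. The members' mean lay at 9.50 to 9.69 on mutant arrays and 9.23 to 9.54 on wild-type arrays.

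Arrays of a genotype share more than the state of su(Hw), so the comparison was also fitted with genotype as a random block. That fit applies a within-genotype correlation shared by all genes, 0.39. It does not estimate a gene's own spread between genotypes, so its calls do not rest on the 4 genotypes as replicates. With this block 7 members were higher (aub, krimp, qin, rhi, shu, spn-E and tej), against 4.77% of all genes, and 1 was lower, nxf2, against 6.23%. Across the 29 alternatives that refit the data, 4 members were called each time: qin, rhi, shu and nxf2. For qin these used its brightest probe set or the mean of its probe sets, which gave 0.35. None rested on its second probe set alone, which changed by -0.08.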

How the data were processed

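RNA of 3 biological replicates per genotype was measured on arrays of 18952 probe sets after NuGEN amplification, per the labels' protocols. The authors deposited log2 signals between 1.60 and 15.64. Partek 6.5 and GCRMA are named for them, per the submitters' processing notes, with an order and parameters not given in the sources used here. By its design GCRMA corrects background by probe sequence and normalises arrays to a common distribution. Normalisation to a common distribution removes overall shifts in RNA content, so every change is relative to the other genes.

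A platform gene table named 1 gene for 13647 probe sets. The 402 with several genes and the 4720 with no entry were left out. Symbols were updated through a RefSeq gene table. vas was matched by the platform's symbol. No probe set was named for a transposable element, so transposon transcripts were not analysed here. The brightest probe set stood for a gene, and genes over log2 5 on at least 3 arrays were tested, 6163 in all. limma 3.58.1 in R 4.3.3 fitted 4 genotype means to all 12 arrays with a variance trend and Benjamini-Hochberg adjustment over all genes. Calls needed an adjusted p under 0.05. This step was tested on simulated data. Arrays have no depth, and 3 per genotype limit the precision.

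The members, gene lists, rule for naming genes and listed alternatives were chosen with earlier results of these data known. Named are the 3 PIWI genes, all called members and those called between wild types or between mutants. Of each other list, the called genes with the largest changes are named, up to 4, and nxf3 was added after its values were seen. The lists were the other pathway genes, the siRNA and miRNA machinery, and markers of germline, follicle, gut, muscle, fat body and haemocytes. Alternatives were other filters, a floor, scalings, probe set rules, variance models, blocks, call rules and leaving out arrays. A covariate of the 3′ minus 5′ signal of GAPDH and eIF-4a and both scalings to germline markers without Rbp9 were added after the values were seen.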

Additional observations from a re-analysis of the deposited data

Results flagged for a closer look

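The level of spn-E, which encodes a nuage helicase, differed between the mutants by the test of that difference. It was the only one of 29 members called lower there, or 3.45%, against 5.08% of all genes, so this count was not above that share. Pb/2 minus A2663/v was -0.37 on the log2 scale, with an adjusted p of 0.0391 in limma and means of 10.12 ± 0.15 in Pb/2 and 10.48 ± 0.09 in A2663/v (SD, n = 3 each). All 3 Pb/2 arrays were below all 3 A2663/v arrays. The call was lost under 13 of 29 alternatives, 1 of which leaves 1 array per mutant, and the difference stayed between -0.45 and -0.19.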

How the results depend on the processing

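Beside the 14 members called higher and 3 lower in mutants, leaving out 1 array gave 13 to 15 higher, 1 to 4 lower and a median of 0.16 to 0.22. Of all genes, those fits called 17.3% to 21.9% higher and 22.4% to 29.8% lower. The count lower was 1 without Canton S replicate 1 or 2, BL15598 replicate 1, Pb/2 replicate 2 or A2663/v replicate 3. Between the wild types, 1 was higher and 2 to 5 were lower with an array left out, and between the mutants 0 were higher (limma, 1 at an unadjusted p under 0.05) and 0 to 2 lower. The replicate numbers do not pair the arrays: 5 of 18 same-numbered pairs had a correlation of deviations over 0.1, and 4 of 12 arrays correlated best with their own number. A replicate block gave 14 higher and 3 lower in mutants, against 20.6% and 26.7% of all genes, and 5 lower between the wild types. Stricter rules gave 0 higher and 0 lower at 2-fold, 13 higher and 1 lower at an adjusted p under 0.01, and 5 higher and 1 lower when all 4 comparisons had to be called. The share of all genes at an adjusted p under 0.01 was not counted. Genotype as a random block gave 7 higher and 1 lower. Without the 4 arrays with digestive enzyme signal, 1 was lower. The 3′ minus 5′ covariate gave 7 higher and a median of 0.11, and turned squ above 0 and BoYb, SoYb, mino, papi and tapas below 0, of which tapas was called, at -0.56. Cyclic loess called 15 higher and 2 lower, where 24% of all genes were higher and 23.2% lower. It moved the share of calls that were higher over all genes to 50.9%, against 43.3%. Scaling to the mean of the germline markers without Rbp9 gave 16 higher, against 27.2% of all genes, 1 lower, against 16.9%, and a median of 0.28. It had 7 lower between the wild types and 61.7% of all calls higher. Scaling to the median of those markers gave 23 higher, against 53.4% of all genes, 1 lower, against 6.12%, and a median of 0.50. It had 89.7% of all calls higher and moved the median of all genes to 0.26. It turned del to 0.25, vls to 0.11 and Hen1 to 0.085, turned Gasz, Panx and squ above 0 as well, and left 0 higher and 9 lower between the wild types. Median centring made 2 higher between the wild types. Between the mutants, the 1 lower member became 0 with no filter on dim genes, cyclic loess (which had 1 higher), no variance trend, the germline median scaling, or with only the 6 mutant arrays, and 2 with the covariate. It was also 0 without the 4 arrays, which leaves 1 array per mutant, assumed to vary like the wild types. The causes of these shifts were not tested. For BL15598 minus Canton S and Pb/2 minus A2663/v, the share of all genes called was not counted under any alternative. Scaling to the germline markers moves all genes of an array together. The member counts of these 2 comparisons under the alternatives, such as 9 lower, therefore do not set the members apart from other genes.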

Other observations

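Markers of tissues next to the ovary differed between genotypes. Of 7 tested muscle genes, Mlc2 was higher in mutants by 0.20 (limma, adjusted p = 0.0374), and the others were not called. Against BL15598, 5 of the 7 were higher in A2663/v and 3 in Pb/2, while against Canton S 1 was lower in A2663/v and 2 in Pb/2. Of 5 fat body genes none was called for the mutants pooled in limma, with 2 lower at an unadjusted p under 0.05. In A2663/v, 3 of the 5 were lower against BL15598 and 1 against Canton S, and 3 were higher in Pb/2 than in A2663/v. Of 4 haemocyte genes, Pxn was higher by 2.69 and NimC1 lower, at -1.45, while Hml, He and eater lay under the floor on every array. Of 6 digestive enzyme genes, 4 were higher in the mutants pooled, with thetaTry at 3.06, Jon65Aiii at 3.04, Jon44E at 2.69 and Mal-A2 at 2.03. In the single comparisons 1 was called higher in A2663/v against each wild type. In Pb/2 against either wild type 0 were called in limma, with 1 higher at an unadjusted p under 0.05. This signal was high on 4 of the 6 mutant arrays only.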
